A study of Homo sapiens with 21 samples.

Results

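Ribosome biogenesis and nucleolar genes were followed in MM.1S, a human multiple myeloma line, through a course of the drug pomalidomide and through a pair of hairpin knockdowns. The group holds 46 genes, taken by symbol from a list of nucleolar, RNA polymerase I and ribosome assembly genes, out of 17691 genes in the deposited TPM table. All 46 were found. TPM is a gene's share of the transcripts in a library, after correction for transcript length.

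The series has 21 mRNA libraries in 7 groups of 3, described by the submitters as biological replicates. Cells without drug, of wild-type genotype, stand at 0 h, and cells in 1 µM pomalidomide were collected at 24, 48 and 72 h. Other cells carried lentivirus for 72 h, with a hairpin against ARID2 or with one against Aiolos (gene IKZF3). Their controls are labelled control knockdown, and no source used here gives the hairpin or time of those controls. No untreated cells stand beside each drug time, so time in culture and time in drug cannot be told apart. Pomalidomide turns the cereblon ubiquitin ligase on proteins such as Ikaros and Aiolos, which are then degraded. ARID2 belongs to PBAF, one of the SWI/SNF complexes that move nucleosomes.

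Ribosomes are built mostly in the nucleolus. RNA polymerase I copies the rDNA into a long precursor, which small nucleolar RNA-protein particles (snoRNPs) modify at chosen bases. Assembly factors then fold and cut the precursor into the small (40S) and large (60S) subunits, while RNA polymerase III supplies the 5S rRNA. MYC drives many of these genes, and myeloma cells, which secrete antibody chains in bulk, depend on a high rate of protein synthesis.

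ARID2 transcript checked its own label: it measured 12.44, 12.22 and 12.06 TPM in ARID2 knockdown, against 26, 25.44 and 25.44 TPM in control knockdown. IKZF3 transcript went against its label: libraries labelled Aiolos knockdown held 127.28, 121.02 and 141.36 TPM, against 83.54, 79.15 and 81.35 TPM in control knockdown. That group is therefore called by its label, and no direction of Aiolos is drawn from it. Of 8 plasma cell markers, SDC1, TNFRSF17, IRF4, XBP1, MZB1 and JCHAIN were at or above 129 TPM in every library, PRDM1 at or above 83.96 TPM and CD38 between 6.31 and 22.63 TPM. Their sum ran from 8048 to 8749 TPM in drug and from 10098 to 10287 TPM in untreated cells. It ran from 9504 to 9908 TPM in ARID2 knockdown, from 6171 to 6508 TPM in libraries labelled Aiolos knockdown and from 10654 to 10847 TPM in control knockdown. Of 11 markers of other cell types, HBB reached 28.53 TPM and the other 10 stayed at or under 4.45 TPM, with medians of 0 for CD3D, LYZ, KRT19 and MS4A1. The sum of these 11 ran from 15.33 to 20.18 TPM in untreated cells, from 16.46 to 21.39 TPM at 24 h, from 21.94 to 24.51 TPM at 48 h and from 17.08 to 19 TPM at 72 h of drug. It ran from 28.99 to 29.87 TPM in ARID2 knockdown, from 7.66 to 9 TPM in the libraries labelled Aiolos knockdown and from 16.13 to 22.31 TPM in control knockdown. The mRNAs of the mitochondrial genome held 13.28% to 18.63% of listed TPM per library. The part of these shifts in the results was not tested. In bulk RNA, fewer transcripts per cell and fewer cells that carry them cannot be told apart, and a TPM is a share, so it also depends on all other transcripts.

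Transcripts of nearly the whole group were lower in pomalidomide than in untreated cells, with the lowest mean at 48 h for all 46 genes. Summed over the group, transcripts measured 7069 ± 37.0 TPM in untreated cells, 4872 ± 79.1 TPM at 24 h, 3566 ± 48.8 TPM at 48 h and 4780 ± 112 TPM at 72 h (SD, n = 3 each). Without NPM1, the most abundant member, the sums were 5920, 4118, 3008 and 4094 TPM. The group's share of listed mRNA was 0.730% in untreated cells, 0.507% at 24 h, 0.375% at 48 h and 0.501% at 72 h.

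At 24 h of drug, 44 of 46 genes were lower than in untreated cells, none was higher (0 also at an unadjusted p under 0.05), and NAT10 and NIP7 did not pass (limma on log2(TPM + 1), Benjamini-Hochberg over 12559 genes, adjusted p under 0.05). Over all genes tested, 66.1% passed in that comparison, 31.0% lower and 35.1% higher, and the median log2 fold change was -0.43 for the group and 0.03 for all genes. At 48 h all 46 were lower, with a median of -0.86 and a range of -2.28 to -0.28, where 78.7% of all genes passed, 34.8% lower and 43.8% higher, with a median of 0.08. Of the 46, 15 were lower at least 2-fold at 48 h, 1 at 24 h and 3 at 72 h. Among the 12559 genes tested, 1011 were lower at least 2-fold at 48 h and 980 at 72 h. By this cut the group stood out only at 48 h, and at 24 and 72 h its share lay near that of all genes. At 72 h 39 were lower and 2 higher, and the median was -0.39. POLR1A, POLR1C, PPAN, RRN3 and WDR75 did not pass at 72 h. Of all genes 79.8% passed at 72 h, 31.6% lower and 48.1% higher, with a median of 0.15. Mitochondrial mRNA held 15.5% of listed TPM in untreated cells, 17.01% at 24 h, 16.7% at 48 h and 13.7% at 72 h. With TPM rescaled without mitochondrial mRNA, an alternative chosen after seeing the data, all 46 genes were still lower at 48 h.

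**Figure D1:**
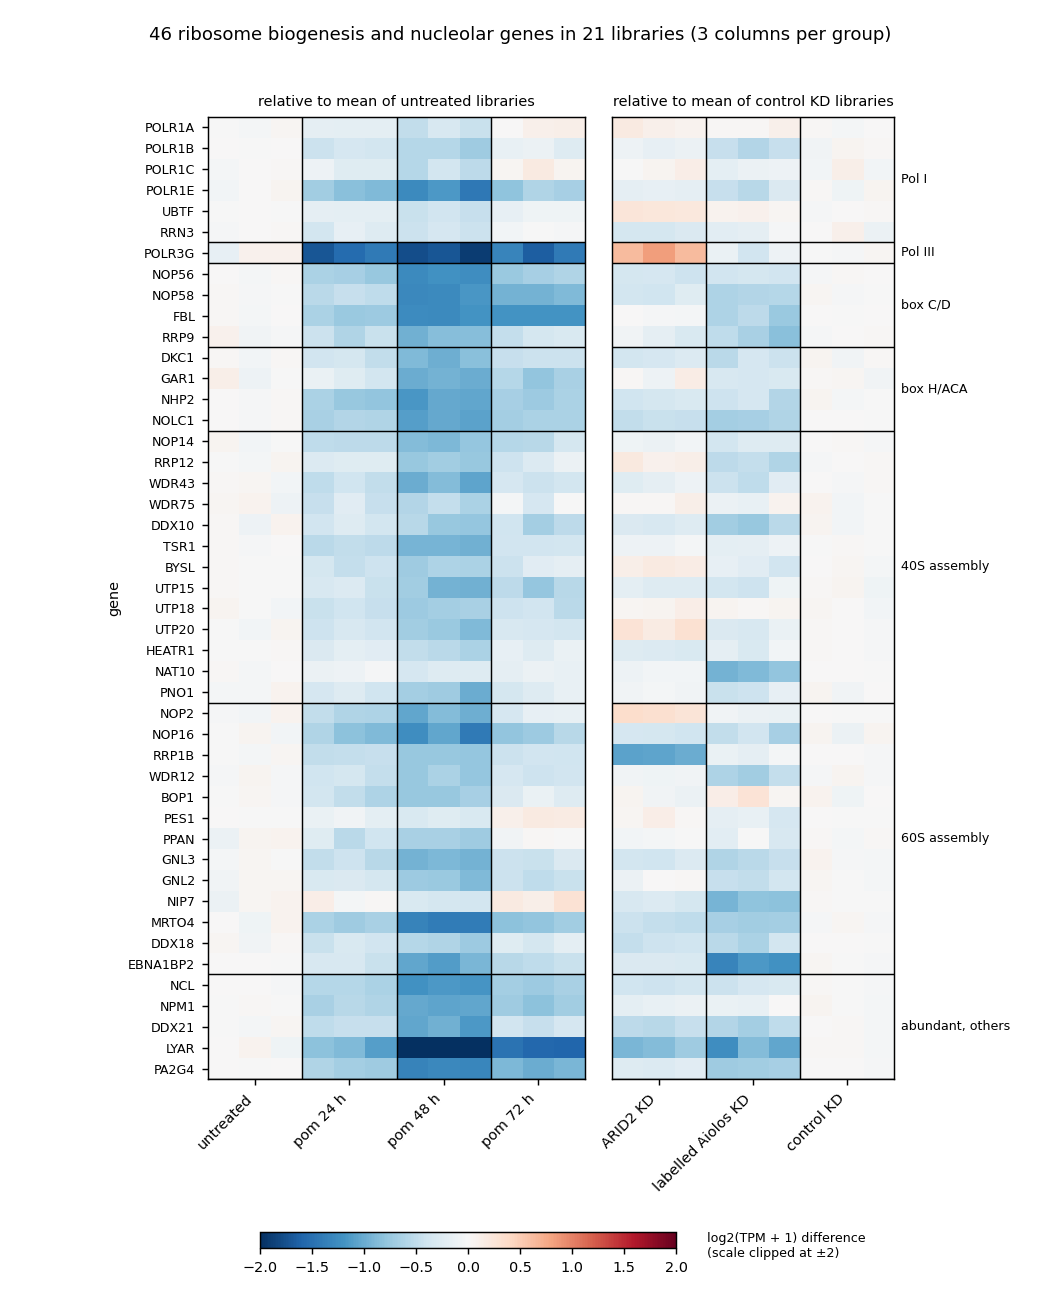
Difference of log2(TPM + 1) for each of the 46 genes (rows, by role) in each library (columns), from the mean of untreated libraries (left block) or of control knockdown libraries (right block); blue is lower and red higher, clipped at 2. The column block of 48 h is the darkest blue, and in the right block RRP1B stands out under ARID2 knockdown and EBNA1BP2 in the libraries labelled Aiolos knockdown.

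The step between 48 and 72 h went the other way. Of the 46 genes, 44 were higher at 72 h than at 48 h (median log2 fold change 0.44) and none was lower (0 also at an unadjusted p under 0.05), where 48.0% of all genes passed, 31.6% higher and 16.5% lower, with a median of 0.06. DDX10 and FBL did not pass. Taken as a share of untreated cells, the median gene stood at 74.2% at 24 h, 54.4% at 48 h and 76.3% at 72 h. Of the TPM lost by 48 h, the median gene had regained 43.9% at 72 h, from 2.43% for FBL to 169.7% for NIP7. For 25 genes less than 50% was regained, and for 4 (POLR1A, POLR1C, PES1 and NIP7) all of it or more. Still, 37 of the 44 that had moved back up were lower than in untreated cells. The regained shares are of TPM as deposited and were not computed under other scalings. Median-of-ratios scaling moved the median of all genes over untreated cells by -0.06 at 48 h and -0.14 at 72 h, so the extent of regain depends on the scale. The higher level of POLR3G at 72 h than at 48 h (0.32) did not pass without 72 h replicate 1 (0.25), 72 h replicate 3 (0.30) or 48 h replicate 3 (0.27). That of UTP15 (0.25) did not pass without 72 h replicate 1 (0.21) or 3 (0.22), or 48 h replicate 2 (0.22) or 3 (0.21).

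**Figure D2:**
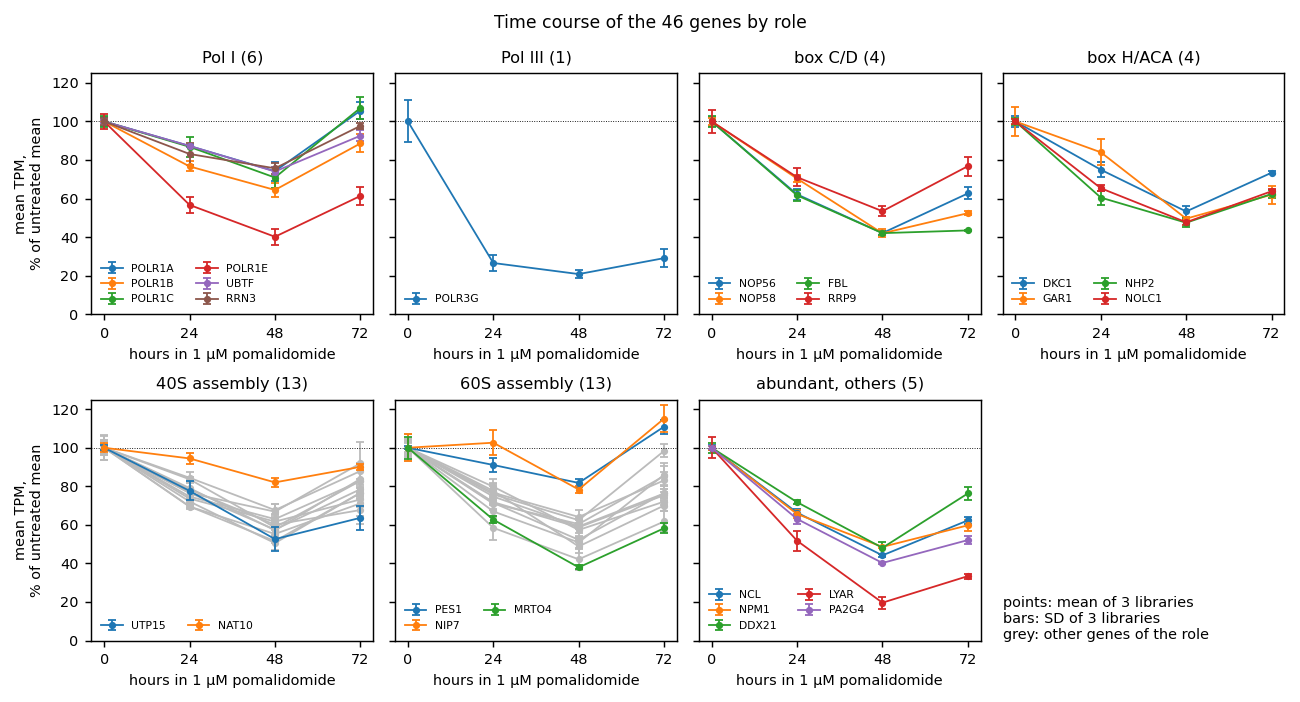
Mean TPM of each of the 46 genes as a percent of its untreated mean against hours in 1 µM pomalidomide, by role (points are means and bars SD of 3 libraries; grey lines are the other genes of a role). Every line has its lowest point at 48 h, and lines end between 29.1% (POLR3G) and 115.1% (NIP7) at 72 h.

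The transcription machinery of the rDNA had the smallest medians. Its 6 genes, which encode RNA polymerase I subunits (POLR1A, POLR1B, POLR1C, POLR1E), the rDNA promoter factor UBTF and the initiation factor RRN3, had a median log2 fold change of -0.23 at 24 h, -0.46 at 48 h and -0.07 at 72 h. All 6 were lower at 24 and 48 h, and POLR1B, POLR1E and UBTF were lower at 72 h. Over all genes 31.0% were lower at 24 h, 34.8% at 48 h and 31.6% at 72 h, and these shares apply to each role below. UBTF measured 97.68, 99.3 and 97.81 TPM in untreated cells, 86.34, 85.28 and 85.72 TPM at 24 h, 71.7, 75.54 and 70.99 TPM at 48 h and 87.61, 92.48 and 92.8 TPM at 72 h. The libraries of each drug time lay below every untreated library, by a small step at 72 h (-0.11 ± 0.03 SE, adjusted p = 0.00324). RRN3 measured 62.94, 64.55 and 64.97 TPM in untreated cells, 49.47, 56.95 and 53.56 TPM at 24 h, 47.53, 50.73 and 47.4 TPM at 48 h and 61.56, 63.6 and 62.83 TPM at 72 h. By 72 h its values overlapped those of untreated cells (-0.03 ± 0.06, adjusted p = 0.598). RRN3 has near-identical pseudogene copies, so its share of reads is uncertain. POLR1E was the exception in this set, with -0.80 at 24 h, -1.28 at 48 h and -0.69 at 72 h.

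POLR3G, on chromosome 5 (chr5:90471748-90514553, GRCh38), encodes the form of an RNA polymerase III subunit that is abundant in stem and tumour cells. It measured 7.75, 9.46 and 9.39 TPM in untreated cells, 1.99, 2.38 and 2.7 TPM at 24 h, 1.88, 2.01 and 1.65 TPM at 48 h and 2.94, 2.12 and 2.68 TPM at 72 h. Every drug library was under every untreated library, and the fall was already -1.56 ± 0.11 at 24 h (adjusted p = 1.28e-10), the largest of the 46 at that time. Its paralog POLR3GL, the subunit form found across tissues, measured 28.84, 27.31 and 28.16 TPM in untreated cells, 45.08, 45.73 and 41.43 TPM at 24 h, 43.12, 42.76 and 43.53 TPM at 48 h and 32.1, 31.24 and 30.94 TPM at 72 h. POLR3GL rose at 24 h (0.63 ± 0.06, adjusted p = 6.6e-09) and at 48 h (0.60 ± 0.06, adjusted p = 5.84e-09), with no overlap of drug and untreated libraries. On the TPM scale POLR3GL was the more abundant form in every group.

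The box C/D and box H/ACA snoRNP proteins moved more. Box C/D particles guide 2'-O-methylation of rRNA by the methyltransferase fibrillarin (FBL) with NOP56 and NOP58, while RRP9 binds the U3 particle. Their median log2 fold changes were -0.59 at 24 h, -1.24 at 48 h and -0.80 at 72 h, and all 4 were lower at each time. FBL measured 428.83, 406.76 and 423.88 TPM in untreated cells, 271.71, 251.05 and 253.82 TPM at 24 h, 174.2, 173.57 and 182.01 TPM at 48 h and 182.19, 183.54 and 181.81 TPM at 72 h. FBL libraries of 48 and 72 h overlapped, and the step between these times did not pass (0.05 ± 0.04, adjusted p = 0.371). NOP56 measured 221.82, 214.98 and 224.84 TPM in untreated cells, 142.52, 138.98 and 129.89 TPM at 24 h, 90.79, 95.2 and 92.47 TPM at 48 h and 131.44, 138.12 and 145.03 TPM at 72 h. NOP56 had a fall of the same size at 48 h (-1.24 ± 0.04, adjusted p = 9.6e-17) and a clear step up by 72 h (0.57 ± 0.04 over 48 h, adjusted p = 4.55e-10).

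Box H/ACA particles guide pseudouridylation by dyskerin (DKC1), with GAR1 and NHP2 as core proteins and NOLC1 (Nopp140) as a chaperone of snoRNPs. The 4 genes had medians of -0.51, -1.02 and -0.66 at 24, 48 and 72 h, and all were lower each time. NHP2 measured 417.62, 408.72 and 425.39 TPM in untreated cells, 269.66, 245.81 and 241.85 TPM at 24 h, 186.62, 205.02 and 202.48 TPM at 48 h and 261.57, 251.58 and 268.04 TPM at 72 h. NOLC1 measured 365.89, 359.34 and 369.68 TPM in untreated cells, 231.61, 243.43 and 240.57 TPM at 24 h, 170.36, 179.26 and 172.54 TPM at 48 h and 228.62, 233.85 and 236.15 TPM at 72 h. In both genes the 24 and 72 h libraries overlapped, with all 48 h libraries below and all untreated libraries above.

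The 13 genes of the small subunit processome and 40S assembly had medians of -0.37, -0.74 and -0.34. At 24 h 12 were lower (all but NAT10), at 48 h all 13, and at 72 h 12 (all but WDR75). NOP14, a processome scaffold, measured 141.14, 131.81 and 135.96 TPM in untreated cells, 95.84, 94.2 and 94.08 TPM at 24 h, 74.48, 72.54 and 78.92 TPM at 48 h and 91.36, 92.38 and 107.1 TPM at 72 h. TSR1, a factor of late 40S maturation, measured 108.71, 104.67 and 107.46 TPM in untreated cells, 73.19, 75.45 and 74.45 TPM at 24 h, 55.59, 55.72 and 54.16 TPM at 48 h and 81.53, 81.49 and 82.64 TPM at 72 h. TSR1 libraries at 72 h all lay above those at 24 h, whereas NOP14 libraries of these times overlapped. The range of the set at 48 h ran from -0.97 for WDR43, a processome subunit, to -0.28 for NAT10, the acetyltransferase of 18S rRNA.

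The 13 genes of 60S assembly had medians of -0.40, -0.76 and -0.38, with 12 lower at 24 h (all but NIP7), 13 at 48 h and 10 at 72 h. GNL3 (nucleostemin), a GTP-binding nucleolar protein, measured 249.11, 262.76 and 253.49 TPM in untreated cells, 181.26, 191.41 and 174.03 TPM at 24 h, 131.6, 136.2 and 132.09 TPM at 48 h and 189.88, 187.58 and 207.82 TPM at 72 h. RRP1B, a nucleolar protein related to the yeast rRNA processing factor Rrp1, measured 203.73, 198.29 and 210.92 TPM in untreated cells, 144.46, 146.82 and 148.68 TPM at 24 h, 120.5, 120.16 and 119.19 TPM at 48 h and 150.56, 156.9 and 154.54 TPM at 72 h. GNL3 and RRP1B were lowest at 48 h, like the whole group, with no drug library reaching the untreated range. EBNA1BP2, a nucleolar protein of 60S assembly, measured 93.34, 92.95 and 92.5 TPM in untreated cells, 74.04, 74.19 and 68.25 TPM at 24 h, 44.95, 42.51 and 48.64 TPM at 48 h and 62.78, 64.73 and 67.74 TPM at 72 h. NOP2, a methyltransferase of 28S rRNA, measured 117.68, 114.34 and 125.21 TPM in untreated cells, 83.96, 78.05 and 77.2 TPM at 24 h, 57.46, 64.46 and 59.83 TPM at 48 h and 94.27, 105.84 and 107.13 TPM at 72 h. In both, no drug library reached the untreated range. MRTO4, which in yeast holds the place of the stalk protein P0 on the maturing large subunit, fell the most of this set at 48 h, at -1.38.

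NIP7 and PES1 were the 2 genes above untreated cells at 72 h. NIP7, a factor of pre-rRNA processing, measured 37.29, 41.72 and 42.57 TPM in untreated cells, 44.45, 39.19 and 41.11 TPM at 24 h, 32.65, 31.58 and 31.01 TPM at 48 h and 46.09, 44.08 and 49.78 TPM at 72 h (0.20 ± 0.06 at 72 h, adjusted p = 0.00356). PES1, which forms the PeBoW complex with BOP1 and WDR12, measured 93.57, 92.5 and 92.25 TPM in untreated cells, 84.23, 87.98 and 81.22 TPM at 24 h, 74.59, 78.19 and 74.76 TPM at 48 h and 99.07, 105.26 and 104.4 TPM at 72 h (0.15 ± 0.04 at 72 h, adjusted p = 0.00547). All 72 h libraries of both genes lay above all untreated ones. Neither call held under median-of-ratios scaling, which moved the median of all genes at 72 h by -0.14: NIP7 then had 0.05 and PES1 -0.01. Under quantile normalization, which moved it by -0.10, NIP7 had 0.10 and did not pass. The call of PES1 at 24 h (-0.13) did not pass without 24 h replicate 3 (-0.11). The other PeBoW genes were lower at 72 h, BOP1 at -0.23 and WDR12 at -0.38. PPAN, whose exons are shared with the readthrough gene PPAN-P2RY11 (0 to 11.14 TPM per library), is uncertain in all comparisons.

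The 5 abundant nucleolar proteins and others had medians of -0.61, -1.18 and -0.74, close to those of box C/D proteins, and all 5 were lower at each time. NPM1 (chr5:171387116-171411137), the nucleolar chaperone nucleophosmin, measured 1142.13, 1163.78 and 1142.25 TPM in untreated cells, 730.03, 779.45 and 753.75 TPM at 24 h, 562.14, 554.73 and 557.83 TPM at 48 h and 699.69, 650.7 and 709.78 TPM at 72 h. NCL, nucleolin, measured 650.41, 651.59 and 635.33 TPM in untreated cells, 435.1, 434.55 and 415.52 TPM at 24 h, 279.07, 291.45 and 285.31 TPM at 48 h and 402.46, 391.39 and 413.43 TPM at 72 h. The most abundant transcripts of the group were thus also lowest at 48 h, with 72 h libraries below the 24 h ones in both NPM1 and NCL. NPM1 and PA2G4 have processed pseudogenes, which leaves their read shares uncertain.

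LYAR (chr4:4267701-4290169, minus strand), a nucleolar zinc finger protein that acts in rRNA transcription and processing, had the largest fall of the 46 at 48 and 72 h on the log2(TPM + 1) scale. As a percent of the untreated mean it stood at 33.4% at 72 h, where POLR3G was lower, at 29.1%. LYAR measured 75.68, 78.89 and 70.67 TPM in untreated cells, 42.03, 40.08 and 34.49 TPM at 24 h, 16.29, 15.85 and 12.08 TPM at 48 h and 26.24, 24.65 and 24.35 TPM at 72 h. The libraries of the 4 groups did not overlap, and the folds were -0.94 ± 0.10, -2.28 ± 0.10 and -1.54 ± 0.10 at 24, 48 and 72 h (adjusted p = 7.26e-08, 2.48e-14 and 1.42e-11). DDX21, an RNA helicase that acts in rRNA transcription and processing, stood at -1.05 at 48 h and -0.39 at 72 h, and PA2G4 (EBP1), a growth regulator bound to ribosomes, at -1.31 and -0.94.

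The knockdown controls were themselves low for this group. Summed transcripts were 5605 ± 83.2 TPM in control knockdown and 7069 ± 37.0 TPM in untreated cells, and 43 of 46 genes were lower in control knockdown, where 45.7% of all genes passed, 28.4% lower and 17.3% higher (medians -0.35 for the group and -0.04 for all genes). None was higher (0 also at an unadjusted p under 0.05), and DDX18, POLR3G and WDR75 did not pass. WDR12 (-0.15) did not pass without control knockdown replicate 1 (-0.14) or 3 (-0.14) or untreated replicate 2 (-0.13). Transduction and time in culture may both differ between these controls and cannot be told apart. Knockdown values are therefore set against control knockdown alone.

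Under ARID2 knockdown the group split. Of 46 genes 26 were lower, 6 were higher and 14 did not pass, where 62.2% of all genes passed, 29.2% lower and 33.1% higher. The median was -0.17 against 0.02 for all genes. Summed transcripts were 4784 ± 53.9 TPM in ARID2 knockdown and 5605 ± 83.2 TPM in control knockdown (SD, n = 3 each). Mitochondrial mRNA held 18.5% of listed TPM in ARID2 knockdown and 17.2% in control knockdown.

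The largest fall was that of RRP1B (chr21:43659548-43696079, plus strand), at 72.54, 73.41 and 76.65 TPM in ARID2 knockdown, against 155.1, 155.26 and 151.89 TPM in control knockdown. No other gene of the 46 was 2-fold lower there (-1.04 ± 0.03, adjusted p = 1.58e-15), and the libraries of the groups lay far apart. Its paralog RRP1 had -0.12 ± 0.04. LYAR came next, at 25.88, 26.73 and 29.8 TPM in ARID2 knockdown, against 50.55, 50.17 and 47.99 TPM in control knockdown (-0.83 ± 0.10, adjusted p = 4.23e-07). The abundant proteins NCL (-0.39), DDX21 (-0.51) and PA2G4 (-0.25) were lower too. NPM1, at 895.14, 922.69 and 942.73 TPM in ARID2 knockdown and 1059.5, 1023.98 and 993.69 TPM in control knockdown, did not overlap between groups (-0.16 ± 0.04, adjusted p = 0.00175), but under quantile normalization its difference was 0.02.

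POLR3G was the gene with the largest rise, at 12.39, 14.38 and 12.32 TPM in ARID2 knockdown, against 7.57, 7.41 and 7.8 TPM in control knockdown (0.70 ± 0.11, adjusted p = 1.01e-05). POLR3GL rose there as well, at 40.66, 41.65 and 42.52 TPM in ARID2 knockdown, against 26.91, 32.39 and 30.93 TPM in control knockdown (0.46 ± 0.06, adjusted p = 6.62e-07). NOP2 measured 107.67, 105.48 and 100.08 TPM in ARID2 knockdown, against 84.64, 83.14 and 83.86 TPM in control knockdown (0.31 ± 0.05, adjusted p = 2.44e-05). All ARID2 knockdown libraries of these genes exceeded all control ones. UBTF also rose, at 80.2, 79.56 and 78.8 TPM in ARID2 knockdown, against 66.74, 68.31 and 68.94 TPM in control knockdown (0.22 ± 0.03, adjusted p = 3.89e-06), as did UTP20, a large processome scaffold (0.25 ± 0.05).

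RRN3 went the other way from UBTF, at 40.03, 39.72 and 41.69 TPM in ARID2 knockdown and 51.51, 54.88 and 47.18 TPM in control knockdown (-0.33 ± 0.06, adjusted p = 4.83e-05). Of the snoRNP proteins, NOP56 (-0.36), NOP58 (-0.33), DKC1 (-0.33), NHP2 (-0.36) and NOLC1 (-0.46) were lower. NOP56 measured 152.05, 153.33 and 145.28 TPM in ARID2 knockdown, against 189.98, 195.48 and 194.5 TPM in control knockdown. NHP2 measured 267.11, 277.1 and 284.85 TPM in ARID2 knockdown, against 365.8, 342.88 and 353.31 TPM in control knockdown. NOLC1 measured 204.84, 211.27 and 209.55 TPM in ARID2 knockdown, against 287.84, 288.29 and 286.71 TPM in control knockdown. No ARID2 knockdown library of these 3 genes reached the control range. The share of all genes so separated was not counted, and 62.2% of all genes passed here. FBL measured 307.9, 302.71 and 297.07 TPM in ARID2 knockdown and 307.22, 306.27 and 306.89 TPM in control knockdown, which overlap (-0.02 ± 0.04, adjusted p = 0.70). Its value was 0.11 under quantile normalization (adjusted p = 0.0204). The median of the 40S set was -0.07, with 2 higher and 5 lower of 13, and that of the 60S set -0.29, with 1 higher and 7 lower of 13. Among all genes 33.1% were higher and 29.2% lower in this comparison.

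Among the abundant assembly genes, NOP14 measured 95.29, 92.61 and 96.96 TPM in ARID2 knockdown, against 101.67, 102.14 and 98.83 TPM in control knockdown (-0.09 ± 0.05, adjusted p = 0.138). TSR1 measured 78.2, 78.09 and 81.97 TPM in ARID2 knockdown, against 83.45, 84.94 and 83.03 TPM in control knockdown (-0.08 ± 0.03). The groups of both genes did not overlap, though the steps were small and that of NOP14 did not pass. GNL3 measured 166.75, 163.47 and 178.38 TPM in ARID2 knockdown, against 224.6, 211.95 and 208.81 TPM in control knockdown (-0.34 ± 0.05). NCL measured 364.52, 359.61 and 369.4 TPM in ARID2 knockdown, against 486.56, 477.68 and 472.17 TPM in control knockdown (-0.39 ± 0.03). Both fell with a wide gap between the groups. EBNA1BP2 measured 56.9, 57.08 and 56.22 TPM in ARID2 knockdown, against 71.46, 69.22 and 68.61 TPM in control knockdown (-0.29 ± 0.05). NIP7 measured 26.94, 27.79 and 26.32 TPM in ARID2 knockdown, against 34.59, 33.68 and 33.66 TPM in control knockdown (-0.32 ± 0.06). These groups did not overlap either. PES1 measured 75.47, 81.15 and 75.28 TPM in ARID2 knockdown and 74.5, 73.23 and 73.52 TPM in control knockdown. Its groups did not overlap, but the step did not pass (0.07).

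Of the 32 calls under ARID2 knockdown, 24 (20 lower, 4 higher) passed in all 6 fits that left out 1 library. POLR1A (0.12) did not pass without ARID2 knockdown replicate 1 or 2 or control knockdown replicate 2 or 3 (0.09 to 0.13), and BYSL (0.15) without ARID2 knockdown replicate 2 or 3 or control replicate 1 or 3 (0.13 to 0.15). POLR1B (-0.13) did not pass without ARID2 knockdown replicate 2 or 3 or control replicate 2 or 3 (-0.14 to -0.10), and UTP15 (-0.24) without ARID2 knockdown replicate 2 or 3 or control replicate 1 or 2 (-0.23 to -0.21). POLR1E (-0.17) did not pass without any of these 6 libraries except control replicate 2 (-0.18 to -0.15). RRP9 (-0.18) passed without ARID2 knockdown replicate 1 and in none of the other 5 fits (-0.20 to -0.13). TSR1 (-0.08) passed without ARID2 knockdown replicate 3 and in none of the other 5 (-0.08 to -0.07). WDR43 (-0.18) was lost without ARID2 knockdown replicate 1 (-0.15).

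In the libraries labelled Aiolos knockdown the group was lower with few exceptions. Of 46 genes 38 were lower, none was higher and 8 did not pass, where 67.9% of all genes passed, 30.7% lower and 37.2% higher, with medians of -0.38 for the group and 0.05 for all genes. At an unadjusted p under 0.05, 2 were higher. Without labelled replicate 3, UBTF (0.08) and BOP1 (0.21) passed as higher, and without control replicate 1 BOP1 did (0.19). Summed transcripts were 4379 ± 83.2 TPM in these libraries and 5605 ± 83.2 TPM in control knockdown. Mitochondrial mRNA held 15.7% of listed TPM in the labelled libraries and 17.2% in control knockdown.

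EBNA1BP2 (chr1:43164175-43270936, minus strand) fell the most. It measured 27.19, 30.75 and 29.54 TPM in the labelled libraries, against 71.46, 69.22 and 68.61 TPM in control knockdown (-1.23 ± 0.05, adjusted p = 2.01e-14). LYAR measured 20.26, 26.65 and 23.58 TPM in the labelled libraries, against 50.55, 50.17 and 47.99 TPM in control knockdown (-1.05 ± 0.10, adjusted p = 1.05e-08). NAT10, which changed little with the drug, measured 32.48, 34.3 and 36.39 TPM in the labelled libraries, against 64.19, 64.1 and 63.1 TPM in control knockdown (-0.87, adjusted p = 1.18e-13). No labelled library of these 3 genes reached the control range. How many of all genes were likewise apart was not counted, and 67.9% of all genes passed in this comparison. NIP7 measured 17.31, 19.08 and 18.79 TPM in the labelled libraries, against 34.59, 33.68 and 33.66 TPM in control knockdown (-0.85 ± 0.06, adjusted p = 6.35e-11).

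FBL was lower here, at 200.44, 213.62 and 182.76 TPM in the labelled libraries, against 307.22, 306.27 and 306.89 TPM in control knockdown (-0.63 ± 0.04, adjusted p = 6.68e-11). Both snoRNP sets were lower in full, with medians of -0.61 (box C/D) and -0.44 (box H/ACA). NOLC1 measured 178.31, 181.06 and 188.51 TPM in the labelled libraries and 287.84, 288.29 and 286.71 TPM in control knockdown (-0.65 ± 0.03, adjusted p = 7.08e-14). Of the 13 genes in each assembly set, 11 were lower, with medians of -0.29 for 40S and -0.51 for 60S. Among all genes 30.7% were lower in this comparison and 37.2% higher. The rDNA transcription set had the smallest median again (-0.14), but 3 of its 6 genes were lower: POLR1B (-0.50 ± 0.05), POLR1E (-0.43 ± 0.07) and RRN3 (-0.14). UBTF measured 71.81, 72.43 and 69.81 TPM in the labelled libraries, against 66.74, 68.31 and 68.94 TPM in control knockdown. That step missed the threshold (0.07 ± 0.03, adjusted p = 0.0608), though the groups did not overlap. POLR3G, at 6.8, 5.57 and 6.97 TPM in the labelled libraries and 7.57, 7.41 and 7.8 TPM in control knockdown, did not pass either (-0.21 ± 0.11, adjusted p = 0.0888), again without overlap.

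Among the abundant members, NOP56 measured 147.28, 150.79 and 147.88 TPM in the labelled libraries, against 189.98, 195.48 and 194.5 TPM in control knockdown (-0.38 ± 0.04). NHP2 measured 266.53, 279.98 and 235.4 TPM in the labelled libraries, against 365.8, 342.88 and 353.31 TPM in control knockdown (-0.44 ± 0.05). NCL measured 356.78, 378.34 and 387.81 TPM in the labelled libraries, against 486.56, 477.68 and 472.17 TPM in control knockdown (-0.36 ± 0.03). All labelled libraries of these 3 genes lay below all control ones, a separation that was not counted over all genes. GNL3 measured 141.97, 147.87 and 156.44 TPM in the labelled libraries, against 224.6, 211.95 and 208.81 TPM in control knockdown (-0.53 ± 0.05). NOP14 measured 78.29, 84.37 and 84.45 TPM in the labelled libraries, against 101.67, 102.14 and 98.83 TPM in control knockdown (-0.29 ± 0.05). TSR1 measured 73.38, 73.9 and 78.42 TPM in the labelled libraries, against 83.45, 84.94 and 83.03 TPM in control knockdown (-0.15 ± 0.03). These assembly genes did not overlap between the groups, with the smallest step in TSR1. RRP1B measured 140.62, 136.33 and 149.67 TPM in the labelled libraries, against 155.1, 155.26 and 151.89 TPM in control knockdown (-0.12 ± 0.03). PES1 measured 65.19, 66.49 and 58.26 TPM in the labelled libraries, against 74.5, 73.23 and 73.52 TPM in control knockdown (-0.22 ± 0.04). Both were lower in every labelled library, as was NOP2, at 79.94, 77.02 and 76.64 TPM in the labelled libraries and 84.64, 83.14 and 83.86 TPM in control knockdown, though NOP2 did not pass (-0.11). NPM1 measured 935.29, 927.35 and 1031.74 TPM in the labelled libraries, against 1059.5, 1023.98 and 993.69 TPM in control knockdown (-0.09). RRN3 measured 43.78, 45.1 and 50.14 TPM in the labelled libraries, against 51.51, 54.88 and 47.18 TPM in control knockdown (-0.14). The groups of NPM1 and RRN3 overlapped.

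**Figure D3:**
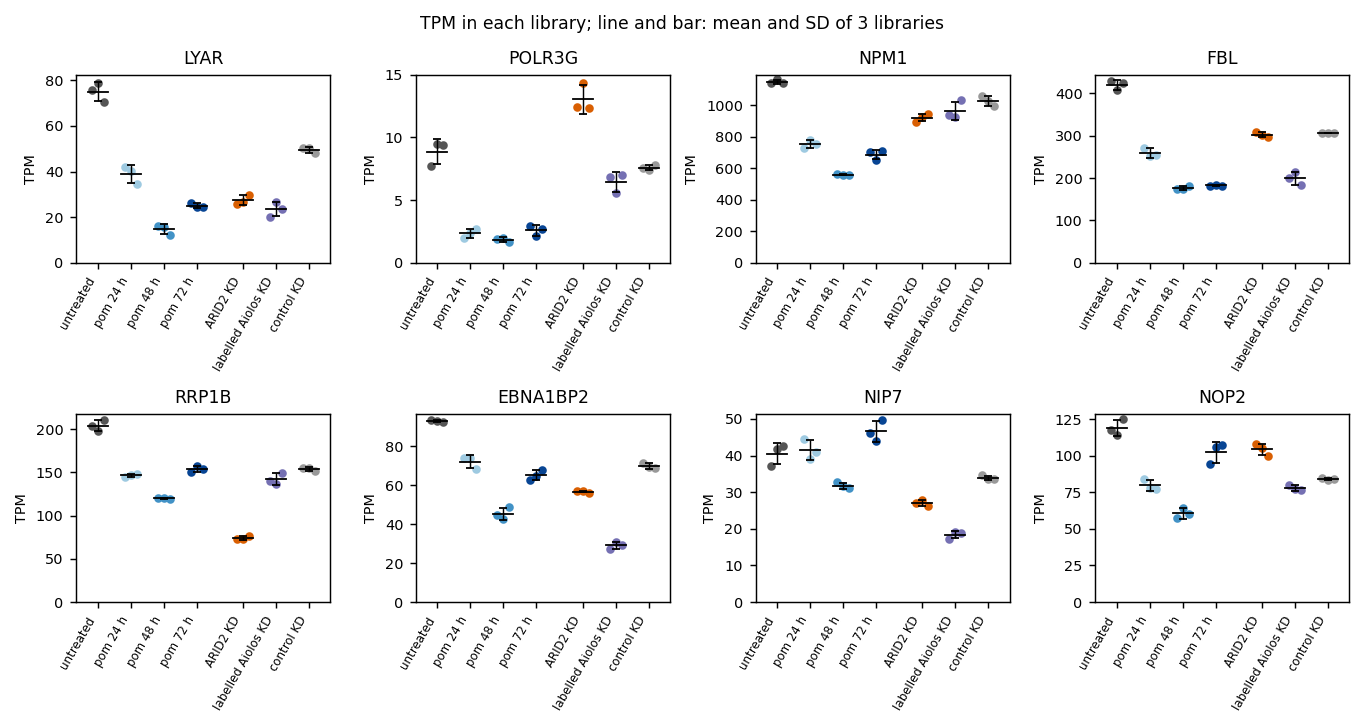
TPM of LYAR, POLR3G, NPM1, FBL, RRP1B, EBNA1BP2, NIP7 and NOP2 in each of the 21 libraries (points), with the mean and SD of the 3 libraries of a group (line and bar); pom stands for pomalidomide and KD for knockdown. LYAR is lowest at 48 h of drug, POLR3G is under 3 TPM in all drug libraries and above 12 TPM in ARID2 knockdown, RRP1B is lowest in ARID2 knockdown and EBNA1BP2 in the libraries with the Aiolos label.

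Of the 38 lower calls, 34 passed in all 6 fits that left out 1 library. NPM1 (-0.09) was lost without labelled replicate 1 (-0.07) or 2 (-0.06) or control replicate 1 (-0.07) or 2 (-0.09), and RRN3 (-0.14) without the same 4 (-0.13 to -0.09). PPAN (-0.18) was lost without labelled replicate 1 (-0.16) or 3 (-0.11) or control replicate 1 (-0.17) or 3 (-0.17), and HEATR1 (-0.18) without labelled replicate 2 (-0.11).

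**Figure D4:**
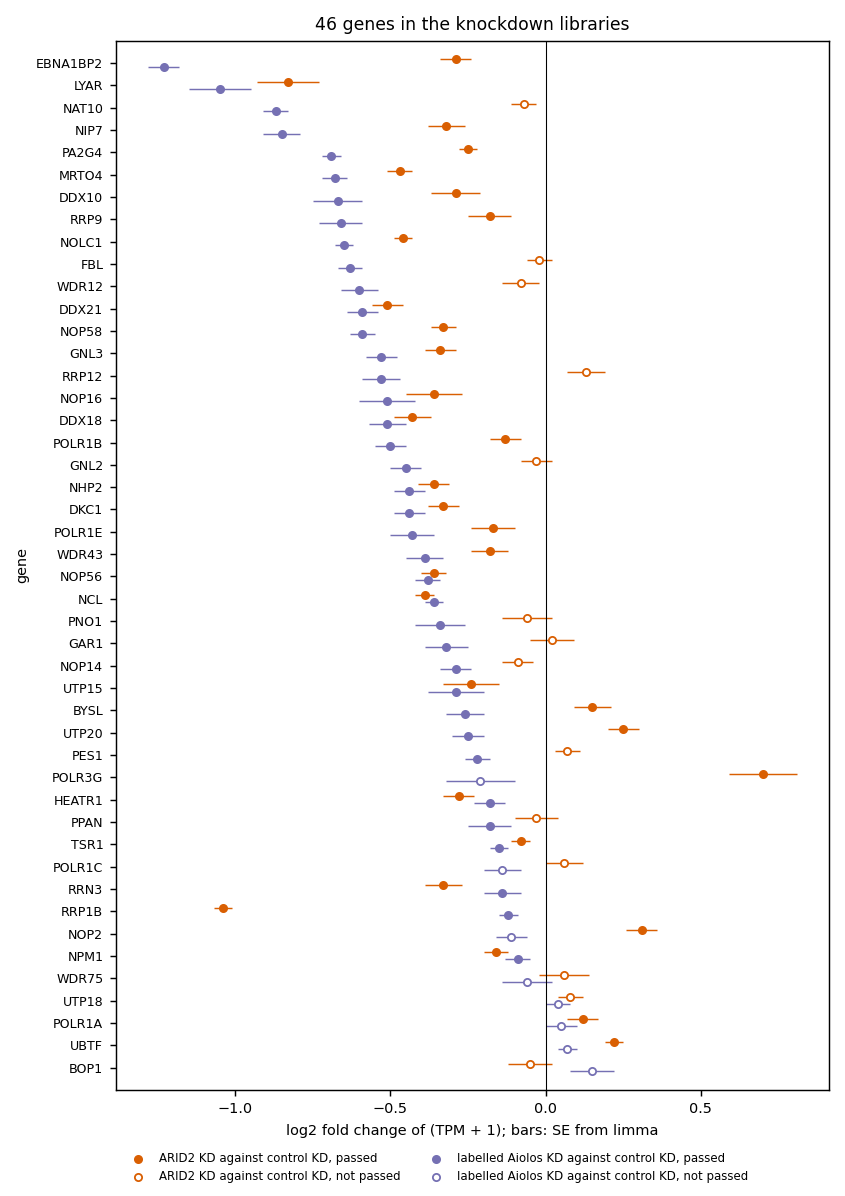
Log2 fold change of (TPM + 1) of each of the 46 genes in ARID2 knockdown (orange) and in the libraries labelled Aiolos knockdown (violet) against control knockdown, with limma's SE as bars; filled points passed. EBNA1BP2 at -1.23 heads the labelled libraries, whereas RRP1B at -1.04 and POLR3G at 0.70 are the ends of ARID2 knockdown.

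The knockdown effects share their control libraries, so the difference between them was tested directly. Of 46 genes 28 were higher and 3 lower in ARID2 knockdown than in the libraries labelled Aiolos knockdown, where 65.9% of all genes passed, 30.2% higher and 35.7% lower, with medians of 0.20 for the group and -0.03 for all genes. EBNA1BP2 (0.94 ± 0.05), POLR3G (0.92 ± 0.11), NAT10 (0.81), RRP12, a 40S export factor (0.67), and FBL (0.61 ± 0.04) had the largest positive differences. RRP1B had the largest negative one (-0.93 ± 0.03, adjusted p = 5.73e-15). RRN3 (-0.19) and BOP1 (-0.20) were also lower in ARID2 knockdown, but RRN3 did not pass without labelled replicate 3 (-0.13), and BOP1 without ARID2 knockdown replicate 3 (-0.16) or labelled replicate 2 (-0.14). TSR1 (0.08) did not pass without ARID2 knockdown replicate 3 (0.05) or labelled replicate 1 (0.06) or 2 (0.07). NOP56 (0.01 ± 0.04), NCL (-0.04 ± 0.03), NPM1 (-0.07 ± 0.04) and NHP2 (0.09 ± 0.05) did not pass.

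MYC, the transcription factor that drives many genes of this group, measured 205.07, 198.68 and 200.29 TPM in ARID2 knockdown, 335.09, 333.17 and 315.74 TPM in the labelled Aiolos knockdown libraries and 368.45, 366.91 and 377.06 TPM in control knockdown. It was lower in ARID2 knockdown than in the labelled libraries (-0.70 ± 0.03, adjusted p = 1.01e-13). In the drug course MYC measured 467.96, 474.54 and 495.49 TPM in untreated cells, 277.48, 269.08 and 262.7 TPM at 24 h, 283.84, 280.53 and 294.7 TPM at 48 h and 299.44, 309.36 and 307.47 TPM at 72 h. MYC's part in the differences of the group was not tested. Between 24 and 48 h 43 of the 46 genes were lower at 48 h, where 58.2% of all genes passed, 26.1% lower and 32.1% higher. Of the 43, BOP1 (-0.23) did not pass without 24 h replicate 1 (-0.16).

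MYC binds the E-box letters CACGTG, which read the same on both strands. RefSeq promoter windows on GRCh38.p14, 250 bases before to 50 after a start, were matched for 38 of the 46 genes, and 18 of them (47.4%) held CACGTG, against 12.8% of 9755 tested genes with a window. No other motif was searched. Stretches of 100 bases from the 250 before the RefSeq start are shown for some of the genes that held the whole E-box there, in capitals. LYAR is shown for the deepest fall at 48 h, EBNA1BP2 for the deepest in the libraries labelled Aiolos knockdown, and DDX21 for a helicase lower in all 5 comparisons. NAT10 is shown for the smallest fall at 48 h, and UTP18 for a gene that held the same letters and passed in neither knockdown. With the start as 0, the first base of the letters stood at -64 in LYAR, -237 in EBNA1BP2, -31 in DDX21, -15 in NAT10 and -89 in UTP18. UTP18 also held the letters after the start, as did another window of EBNA1BP2.
LYAR, chr4:4290033-4290132, minus strand: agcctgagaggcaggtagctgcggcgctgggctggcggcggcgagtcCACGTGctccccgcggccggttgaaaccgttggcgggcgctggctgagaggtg
EBNA1BP2, chr1:43172721-43172820, minus strand: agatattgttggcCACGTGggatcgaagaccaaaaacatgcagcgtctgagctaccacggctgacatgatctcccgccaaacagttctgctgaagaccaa
DDX21, chr10:68956547-68956646, plus strand: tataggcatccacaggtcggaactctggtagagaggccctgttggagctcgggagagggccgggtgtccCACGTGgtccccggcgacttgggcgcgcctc
NAT10, chr11:34105529-34105628, plus strand: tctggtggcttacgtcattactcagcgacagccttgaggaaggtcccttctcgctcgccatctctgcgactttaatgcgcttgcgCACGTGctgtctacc
UTP18, chr17:51260410-51260509, plus strand: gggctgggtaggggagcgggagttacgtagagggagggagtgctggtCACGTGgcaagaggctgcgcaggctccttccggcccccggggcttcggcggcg

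At 48 h the 18 genes with the letters had a median log2 fold change of -0.91 (range -2.28 to -0.28) and the 20 without had -0.71 (range -1.31 to -0.34). Under ARID2 knockdown the medians were -0.06 with and -0.25 without, and in the libraries labelled Aiolos knockdown -0.42 with and -0.32 without. The ranges overlap in every comparison, and these are descriptions without a test. A match says only that the letters are there. POLR1E, RRP12, RRP1B, POLR3G, NOLC1, DDX18, NOP58 and BOP1 had no window in the table used.

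Other ribosome biogenesis genes moved in the same direction with smaller medians. Of 116 tested genes in the lists of other Pol I, 40S, 60S and snoRNP assembly factors, 85 were lower and 2 higher at 24 h (median -0.24), 100 lower and 6 higher at 48 h (-0.43), and 63 lower and 22 higher at 72 h (-0.17). Among all genes 31.0% were lower and 35.1% higher at 24 h, 34.8% and 43.8% at 48 h, and 31.6% and 48.1% at 72 h. Between 48 and 72 h 88 of the 116 rose and none fell (0 also at an unadjusted p under 0.05), where 31.6% of all genes rose and 16.5% fell. That became 68 higher and 1 lower under median-of-ratios scaling, and 72 higher and 1 lower under quantile normalization. The split at 72 h moved with scaling, to 81 lower and 9 higher under median-of-ratios scaling. CD3EAP, a Pol I subunit (-1.68 ± 0.07 at 48 h), and BRIX1, a 60S factor (-1.47 ± 0.06), fell the most of the 116 at 48 h, whereas NOP53 (0.71 ± 0.06) and EFL1 (0.49 ± 0.07), which acts in late 60S maturation, rose. Under ARID2 knockdown 48 of the 116 were lower and 19 higher (-0.11), where 29.2% of all genes were lower and 33.1% higher. NOL6 at -0.94 and RSL24D1 at -0.83 were the lowest of the 116 there. In the libraries labelled Aiolos knockdown 82 of the 116 were lower and 10 higher (-0.24), where 30.7% of all genes were lower and 37.2% higher. RUVBL1, an ATPase of snoRNP assembly, stood at -1.14 in those libraries.

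The ribosomal proteins themselves, the building blocks of the subunits, did not move with the assembly genes in every group. Summed over 85 cytosolic ribosomal protein genes, transcripts held 88310 TPM in untreated cells, 81020 TPM at 24 h, 74210 TPM at 48 h and 73430 TPM at 72 h. The 85 were taken by symbol and include ribosomal protein-like genes such as RPL7L1, RPS27L, RPL22L1 and RPL26L1. Of 84 tested, 70 were lower and 3 higher at 48 h (median -0.29), where 34.8% of all genes were lower and 43.8% higher, or 54 lower and 10 higher under quantile normalization. Between 48 and 72 h the split had no stable direction: 20 were higher and 12 lower as deposited (31.6% and 16.5% of all genes), against 3 higher and 37 lower under median-of-ratios scaling, 15 and 23 under quantile normalization, and 10 and 29 without mitochondrial mRNA. In the libraries labelled Aiolos knockdown they held 124800 ± 3841 TPM, against 94950 ± 1054 TPM in control knockdown, with 77 higher and 4 lower of 84 (median 0.35, and 0.29 to 0.33 under the other scalings), where 37.2% of all genes were higher and 30.7% lower. In ARID2 knockdown they held 94160 TPM, with 22 higher and 29 lower (median -0.02), where 33.1% of all genes were higher and 29.2% lower. That split turned to 37 higher and 17 lower under quantile normalization and to 27 higher and 24 lower without mitochondrial mRNA. Ribosomal protein genes have many processed copies, so single values are uncertain.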

How the data were processed

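The authors deposited 1 table of TPM for 17691 gene symbols in 21 libraries (total RNA, TruSeq RNA v2 kit, per the labels' protocols, run on NovaSeq). Genome build hg38 is named in the submitters' processing notes; aligner and quantifier were not given in the sources used here. TPM keeps no depth, so depth is unknown and counting error cannot be given. Values were tested as log2(TPM + 1); fold changes understate those of low genes. A gene was kept where 3 or more libraries reached 1 TPM (12559, all 46 members among them) and fitted together in limma 3.58.1 (R 4.3.3) as 7 group means, with a trend in the prior (14 residual and 5.28 prior degrees of freedom). Tests were two-sided, with Benjamini-Hochberg adjustment within each of 9 contrasts over all genes kept, at 0.05; all adjusted p-values are limma's. Nothing is stated of separate cultures, so p-values reflect only how far these libraries spread. The share of all genes whose libraries did not overlap between groups was not counted, so remarks on overlap describe single genes only. The members and lists were chosen with earlier results of these data known. Values in the libraries of the drug course and of the knockdowns are given for the 2 most abundant members of each role and the 2 largest falls and rises among those passed in the drug and knockdown contrasts; NAT10, POLR3GL and other genes singled out were chosen after their values were seen. Gene positions are from GENCODE 29 (GRCh38) and promoters from RefSeq (GRCh38.p14). Alternatives were another pseudocount (0.1), no filter, a filter of 5 TPM, median-of-ratios and quantile scaling, fits of only the groups compared, a replicate block and leaving out each library; 1 more, TPM without mitochondrial mRNA, was chosen after seeing the data. The fit was tested on simulated data.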

Additional observations from a re-analysis of the deposited data

How the results depend on the processing

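The counts of lower genes stayed within 1.5 times of those reported in all 9 contrasts and under all alternatives: 43 to 45 at 24 h, 46 at 48 h, 39 to 42 at 72 h, 21 to 27 under ARID2 knockdown and 35 to 41 in libraries labelled Aiolos knockdown. The count higher at 72 h was 2 and became 0 under median-of-ratios scaling and 1 under quantile normalization. The count higher in the libraries labelled Aiolos knockdown was 0 and became 1 without a filter, 1 with a filter of 5 TPM, 2 under quantile normalization, 1 with the replicate block and 0 to 2 when 1 library was left out. Directions that turned were those of PES1 at 72 h over untreated cells (-0.008 under median-of-ratios scaling), MYC at 72 h over 48 h (-0.027 under quantile normalization), and, under ARID2 knockdown with quantile normalization, FBL (0.115) and NPM1 (0.015). The cause was not tested.

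Replicate numbers did not pair the libraries: deviations of libraries with the same number correlated between -0.119 and 0.0765 over 27 pairs, and 5 correlated best with their own number. With the replicate block, 44, 46 and 39 genes were lower at 24, 48 and 72 h, 24 under ARID2 knockdown and 38 in libraries labelled Aiolos knockdown. Without depth, differences of genes near the filter, such as POLR3G at 72 h, carry an unknown counting error, and 3 libraries per group limit all small differences.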

Other observations

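Neighbouring machines of RNA metabolism were described in the same fits. Of 14 tested genes of the RNA exosome, which trims rRNA precursors, 12 were lower at 24 h of drug (median log2 fold change -0.38), 12 lower at 48 h (-0.58) and 12 lower and 2 higher at 72 h (-0.43). At these times 31.0%, 34.8% and 31.6% of all genes were lower, and 35.1%, 43.8% and 48.1% higher. The exosome cofactor MPHOSPH6 stood at -1.31 at 48 h and -1.55 at 72 h, and the core subunits EXOSC2 and EXOSC8 at -1.20 each at 48 h. Under ARID2 knockdown 8 of 14 were lower and 1 higher (-0.17), where 29.2% of all genes were lower and 33.1% higher. In the libraries with the Aiolos label 11 of 14 were lower and 1 higher (-0.48), where 30.7% of all genes were lower and 37.2% higher. Of 21 other genes of RNA polymerase III transcription, 11 were lower and 5 higher at 48 h (-0.14), where 34.8% of all genes were lower and 43.8% higher. At 72 h 7 were lower and 10 higher (0.06), or 9 lower and 3 higher under median-of-ratios scaling, where 31.6% of all genes were lower and 48.1% higher as deposited, so the split at 72 h lay near that of all genes. POLR3K, a subunit of that polymerase, had the largest change of its list in the libraries with the Aiolos label, at -2.11 ± 0.07, while under ARID2 knockdown it was at -0.13 ± 0.07 and did not pass. MAF1, the repressor of RNA polymerase III, rose at 48 h (0.31 ± 0.05), under ARID2 knockdown (0.31 ± 0.05) and in the libraries with the Aiolos label (0.51 ± 0.05).

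NPM3, a nucleoplasmin related to NPM1, fell further at 24, 48 and 72 h than any of the 46 genes on the log2(TPM + 1) scale. The margin at 24 h was small, at -1.64 against -1.56 for POLR3G. It measured 161.82, 183.16 and 169.66 TPM in untreated cells, 61.5, 55.37 and 47.13 TPM at 24 h, 27.55, 22.15 and 18.5 TPM at 48 h and 25.09, 29.94 and 29.85 TPM at 72 h. Its fold changes were -1.64 ± 0.11, -2.88 ± 0.11 and -2.56 ± 0.11 at 24, 48 and 72 h. It measured 58.46, 65.15 and 57.98 TPM in the libraries with the Aiolos label, against 148.75, 141.63 and 134.93 TPM in control knockdown (-1.22 ± 0.11). Under ARID2 knockdown it measured 125.6, 131.56 and 125.37 TPM and did not pass (-0.15 ± 0.11). Among the other paralogs, GNL3L was higher under ARID2 knockdown (0.34 ± 0.07), where GNL3 was lower, and DDX50, related to DDX21, was lower at 48 h (-0.57 ± 0.05).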
